A study of Mus musculus with 18 samples.

Results

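The 9 complement genes described here were C1qa, C1qb and C1qc, C3, C4b, Cfb, Cfp, C3ar1 and C5ar1, chosen by symbol from the complement components and receptors, among 13598 genes with a value in the series. Their RNA was measured by RNA-seq in peritoneal macrophages of 3 mouse lines, with and without lipopolysaccharide (LPS), the cell wall component of Gram-negative bacteria that is sensed by TLR4. TLR4-WT mice carry the normal receptor, and in TLR4-K730R and TLR4-K810R mice, made by gene editing on the C57BL/6 background, a lysine of the intracellular TIR domain of TLR4 is replaced by arginine. Macrophages of each line were left untreated (control) or exposed to 100 ng/ml LPS for 6 h, which gave 6 groups of 3 libraries. The labels give the tissue as abdominal and the cells as macrophages, and the study elicited them with thioglycolate, which draws in blood-derived cells beside the resident ones. The number of founder lines and the age of the mice were not given in the sources used here. Nothing stated that libraries of a group came from separate animals, and p-values measure only the spread between these libraries.

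Complement is a cascade of plasma proteins that tags and kills microbes. In the classical pathway the C1q complex, built from the chains encoded by C1qa, C1qb and C1qc, binds antibody or dying cells and leads to cleavage of C4 and C2. In the alternative pathway, factor B (Cfb) joins cleaved C3 to form the C3 convertase, which properdin (Cfp) stabilises, and the fragments C3a and C5a act on the receptors C3ar1 and C5ar1. Most complement proteins of plasma come from the liver, whereas C1q and properdin are made largely by macrophages and other myeloid cells.

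The deposited values were FPKM (fragments per kilobase of transcript, relative to the fragments of the library) of transcript events, such as a first exon or a last exon. First-exon events and last-exon events of a gene were each summed per library, and its level was the greater of these sums. The files held no read counts, so the depth was unknown and no counting interval could be given. Differences are on the log2(FPKM + 1) scale and were tested with limma across 9707 genes, with Benjamini-Hochberg adjustment, and a gene was called at an adjusted p below 0.01. The r across genes between replicate libraries was 0.961 to 0.975. Of 8 macrophage markers, 6 were at 5.03 FPKM or more in all 18 libraries, among them Adgre1 (148 to 271 FPKM) and Csf1r (277 to 538 FPKM). Summed markers of B cells and T cells stayed at or below 3.66 and 0.958 FPKM, and those of lung epithelium were at 25.0 and 34.7 FPKM in 2 TLR4-K810R libraries after LPS and at or below 3.94 FPKM elsewhere. Hepatocyte markers, of which Alb stayed below 1 FPKM, summed to 0 FPKM in TLR4-WT control and to 6.34 to 13.9 FPKM in control of the mutant lines. Those of intestinal epithelium summed to 0.118 to 0.594 FPKM in TLR4-WT control, 7.53 to 38.1 FPKM in TLR4-K730R control and 11.5 to 54.5 FPKM in TLR4-K810R control. The part of these markers in differences between lines was not tested. After LPS the median of all tested genes lay 0.26 to 0.36 below that of control on the log2 scale (TLR4-WT -0.28, TLR4-K730R -0.36, TLR4-K810R -0.26). Median-of-ratios scaling brought it to between -0.09 and -0.04 and changed the balance of called genes from 1012 higher and 2316 lower to 1421 and 1449 in TLR4-WT. In TLR4-K730R the balance changed from 905 higher and 2568 lower to 1370 and 1463, and in TLR4-K810R from 881 and 1916 to 1128 and 1234.

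Of the 9 genes, 6 had a value in all 18 libraries and passed the filter on low values, namely C1qa, C1qb, C1qc, C3, C4b and Cfp. C3 was read from its first exon alone and Cfp from its last exon alone. No event carried the gene number of Cfb. Its first exon (GRCm38 chromosome 17, 34862052 to 34862518, minus strand) was filed under the number of the neighbouring gene C2, which spans 34862604 to 34898265 upstream of it. A value for Cfb was therefore taken by position, as the sum of first-exon events inside the Cfb gene (34856374 to 34862518), and entered the fit as 1 more gene, which made 9708. This step was added after the data were seen. C3ar1 had no event and was not analysed here. C5ar1 had events in 4 libraries and was not tested.

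The C1q genes lie side by side on chromosome 4 of GRCm38, all on the minus strand. C1qb (ENSMUSG00000036905) spans 136880129 to 136886187, C1qc (ENSMUSG00000036896) 136889804 to 136893065 and C1qa (ENSMUSG00000036887) 136895917 to 136898803. C4b (ENSMUSG00000073418, 34728380 to 34743882), Cfb (ENSMUSG00000090231) and C3 (ENSMUSG00000024164, 57203970 to 57228136) lie on chromosome 17. Cfp (ENSMUSG00000001128) lies on chromosome X from 20925454 to 20931555.

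The promoters of C1qb, which fell after LPS, and of C3, whose mean lay higher after LPS, are shown because the transcription start listed in the files is close to that of RefSeq for both. RefSeq promoters (GRCm38.p6) were matched for 6 of the 9 genes, C1qb, C1qc, C3, Cfp, C3ar1 and C5ar1, and those of C1qa, C4b and Cfb were not used here. The start listed for C3 was the RefSeq start itself, and that of C1qb lay 13 bases downstream of the RefSeq start. The 250 bases before the RefSeq start are given, 5′ to 3′ on the minus strand, with motif matches in capitals, for C1qb at chr4:136886201-136886450 and for C3 at chr17:57228137-57228386.
C1qb: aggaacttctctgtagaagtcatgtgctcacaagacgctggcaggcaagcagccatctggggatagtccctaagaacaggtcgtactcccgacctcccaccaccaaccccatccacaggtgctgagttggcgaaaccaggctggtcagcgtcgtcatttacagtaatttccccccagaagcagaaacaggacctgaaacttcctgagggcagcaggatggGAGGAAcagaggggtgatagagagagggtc
C3: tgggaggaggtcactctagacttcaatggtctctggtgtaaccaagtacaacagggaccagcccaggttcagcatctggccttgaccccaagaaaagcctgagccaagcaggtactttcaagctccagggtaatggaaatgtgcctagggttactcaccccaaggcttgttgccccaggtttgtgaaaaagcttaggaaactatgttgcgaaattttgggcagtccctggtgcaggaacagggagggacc
Both strands were searched for GAGGAA (the core of sites for ETS factors such as PU.1), TTCNNNGAA (the GAS motif of STAT factors), TATAAA, the NF-κB motif and the core of interferon-stimulated response elements (ISRE). C1qb held 1 match, GAGGAA at bases -30 to -25 from the start, a motif present in 23.3% of 32851 promoters of this length. The shown C3 window held none of the motifs. In the C1qc window an NF-κB match lay at bases -41 to -32 and TTCCTC, the reverse complement of GAGGAA, at -193 to -188, and NF-κB matches were present in 3.90% of promoters. The first exon that the files list for C1qc starts 151 bases upstream of the RefSeq start, so the NF-κB match lies inside that exon. The other motifs were present in 7.02% (TTCNNNGAA), 2.98% (ISRE core) and 12.4% (TATAAA) of promoters. A match is a description of the letters only.

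With FPKM as deposited, C1qa and C1qb were called lower and Cfb higher after LPS in all 3 lines. C1qc was called lower in both mutant lines, while C3, C4b and Cfp did not pass the threshold after LPS in any line. In TLR4-WT C1qc missed the threshold (limma adjusted p = 0.0330), with its mean after LPS at 54.9% of the control mean. Of the 6 tested genes, 2 were called lower in TLR4-WT (C1qa and C1qb), where 23.9% of all tested genes were called lower and 10.4% higher. In TLR4-K730R, 3 were called lower (the C1q genes), where 26.5% of all genes were called lower and 9.32% higher. In TLR4-K810R the same 3 were called lower, where 19.7% of all genes were called lower and 9.08% higher. None of the 6 was called higher. With median-of-ratios scaling, in contrast, C3 was called higher in all 3 lines. The lower calls left were then C1qc in TLR4-K730R and C1qa and C1qb in TLR4-K810R. Without that scaling the 6 genes had a median difference of -0.62 for TLR4-WT, -0.43 for TLR4-K730R and -0.81 for TLR4-K810R.

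C1qb had the highest level of the C1q genes in every group. In TLR4-WT it was at 491, 543 and 554 FPKM in control libraries and at 351, 345 and 263 FPKM after LPS. In TLR4-K730R it was at 477, 502 and 459 FPKM in control and at 175, 188 and 358 FPKM after LPS. In TLR4-K810R it was at 533, 491 and 552 FPKM in control and at 181, 203 and 181 FPKM after LPS. All LPS libraries lay below all control libraries in each line, with replicate 3 of LPS-treated TLR4-K730R well above its 2 companions. The mean after LPS was 60.3% of the control mean for TLR4-WT, 50.2% for TLR4-K730R and 35.8% for TLR4-K810R. The log2 difference was -0.74 in TLR4-WT (standard error 0.20, limma adjusted p = 0.00671), -1.07 in TLR4-K730R (0.20, adjusted p = 0.000382) and -1.48 in TLR4-K810R (0.20, adjusted p = 2.11e-05).

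C1qa followed C1qb at a lower level. In TLR4-WT it was at 179, 212 and 223 FPKM in control and at 142, 132 and 85.7 FPKM after LPS. Libraries of TLR4-K730R read 165, 174 and 177 FPKM in control and 78.0, 71.8 and 120 FPKM after LPS. Libraries of TLR4-K810R read 154, 146 and 151 FPKM in control and 55.8, 64.8 and 57.6 FPKM after LPS. Control and LPS libraries did not overlap in any line. Its log2 difference was -0.79 in TLR4-WT (standard error 0.19, limma adjusted p = 0.00254), -0.96 in TLR4-K730R (0.19, adjusted p = 0.000514) and -1.33 in TLR4-K810R (0.19, adjusted p = 3.13e-05).

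C1qc was more scattered in TLR4-WT. Its control libraries there were at 209, 90.5 and 246 FPKM and its LPS libraries at 105, 108 and 86.2 FPKM, so replicate 2 of control fell among the LPS libraries. Libraries of TLR4-K730R read 193, 195 and 178 FPKM in control and 61.5, 62.5 and 94.2 FPKM after LPS. Libraries of TLR4-K810R read 152, 140 and 129 FPKM in control and 64.4, 51.6 and 59.8 FPKM after LPS. In both mutant lines the groups were apart, and C1qc was called lower with a log2 difference of -1.39 in TLR4-K730R (standard error 0.27, limma adjusted p = 0.000522) and -1.25 in TLR4-K810R (0.27, adjusted p = 0.00151). In TLR4-WT the difference was -0.74 (0.27, adjusted p = 0.0330). Without replicate 2 of control it was -1.18 with an adjusted p of 6.87e-05 from limma, and without replicate 3 of control it was -0.47 with an adjusted p of 0.174. With limma's library weights it was called (-0.81, adjusted p = 0.00864).

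The C1q differences depended on scaling, on the groups in the fit and, in TLR4-WT, on single libraries. With median-of-ratios scaling the differences in TLR4-WT were -0.50 for C1qa (limma adjusted p = 0.0713) and -0.44 for C1qb (adjusted p = 0.124), and those in TLR4-K730R were -0.61 (adjusted p = 0.0297) and -0.72 (adjusted p = 0.0167), so these calls ended. That of C1qc in TLR4-K810R became -1.02 (adjusted p = 0.0114), while C1qc in TLR4-K730R and C1qa and C1qb in TLR4-K810R were still called. The C1qb call in TLR4-WT was lost whichever of the 6 libraries was left out and that of C1qa in 3 of 6 such fits, whereas the C1q calls in both mutant lines held in all 6. With only the compared groups in the fit, the calls of C1qa in TLR4-WT (limma adjusted p = 0.0165) and of C1qb in TLR4-K730R (adjusted p = 0.0144) ended.

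Markers of macrophages and of other cells also moved after LPS. The summed level of the macrophage markers was 13470.4 to 14785 FPKM in TLR4-WT control and 7289 to 9465 FPKM after LPS, most of it Lyz2. In TLR4-K730R the sum was 13624 to 14742 FPKM in control and 7598 to 9792 FPKM after LPS, and in TLR4-K810R 11633 to 13949 and 9098 to 10057 FPKM. Of the 6 macrophage markers tested, 4 were called lower and 1 higher in TLR4-WT and in TLR4-K730R, and 1 lower and 2 higher in TLR4-K810R. The sum of 9 neutrophil markers, of which 8 had a value, was 71.1 to 99.0 FPKM over all control libraries and 223 to 295 FPKM over all LPS libraries, although Ly6g and Ngp, which define these cells, stayed below 1 FPKM. The sum of 7 dendritic cell markers, of which 5 had a value and most of which was Itgax, was 49.5 to 78.7 FPKM in control and 29.6 to 41.6 FPKM after LPS. The part of these markers in the LPS differences of the complement genes was not tested.

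**Figure D1:**
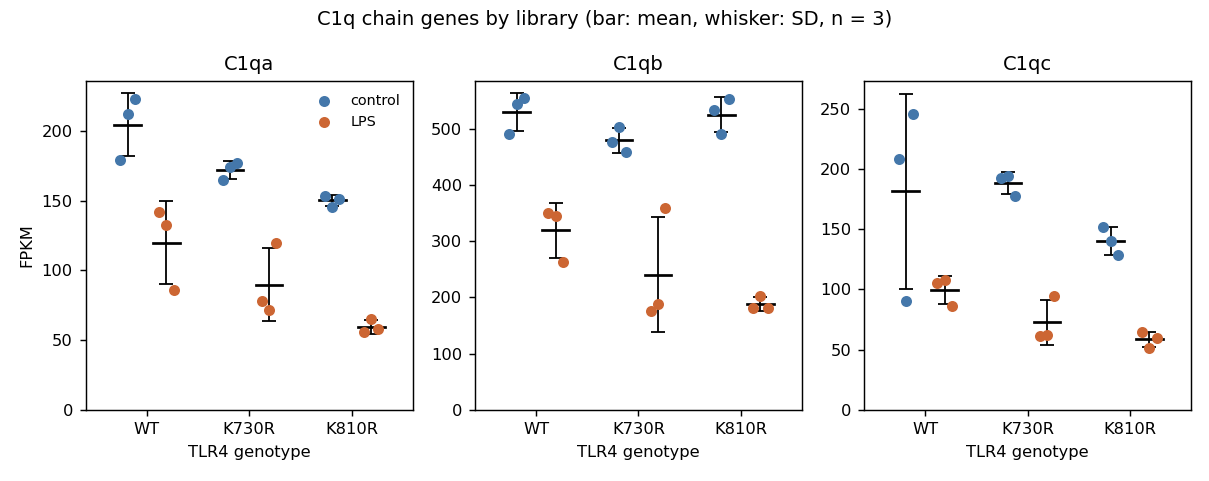
FPKM of C1qa, C1qb and C1qc (vertical axis, from 0) in each library by TLR4 genotype, in control (blue) and after LPS (orange), with the mean as a bar and the SD as a whisker. LPS libraries sit below control libraries in every genotype, except for C1qc in TLR4-WT, where control replicate 2 (90.5 FPKM) lies among the LPS libraries.

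The chains of C1q are assembled in equal number in the protein, and their RNA levels were compared as FPKM, which is per length. C1qb over C1qa was 2.49 to 2.74 in control and 2.47 to 3.07 in LPS libraries of TLR4-WT, and 2.59 to 2.90 and 2.24 to 2.995 in TLR4-K730R. In TLR4-K810R it was 3.37 to 3.65 in control and 3.14 to 3.24 after LPS, above every other library. C1qc over C1qa was 0.427 in replicate 2 of TLR4-WT control and 0.742 to 1.17 in the other 17 libraries. The files listed 2 first exons for C1qc that share their start and are 272 and 222 bases long. The longer form made up 11.4% to 18.4% of the first-exon FPKM of C1qc in 17 libraries and was not listed in replicate 2 of LPS-treated TLR4-K810R.

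Cfb, the protease subunit of the alternative pathway convertase, changed most with LPS among the 7 values. In TLR4-WT its first exon was at 87.3, 97.8 and 86.4 FPKM in control and at 867, 888 and 931 FPKM after LPS. In TLR4-K730R it was at 55.3, 64.6 and 57.3 FPKM in control and at 860, 756 and 872 FPKM after LPS. In TLR4-K810R it was at 19.8, 17.2 and 20.5 FPKM in control and at 730, 793 and 631 FPKM after LPS. The control levels of the 3 lines did not overlap and fell in the order TLR4-WT, TLR4-K730R, TLR4-K810R, while the LPS levels of TLR4-WT and TLR4-K730R overlapped. Control libraries were apart from those of TLR4-WT for 16.4% of all tested genes in TLR4-K730R and 20.8% in TLR4-K810R. The mean of Cfb after LPS was 9.90 times the control mean in TLR4-WT, 14.0 times in TLR4-K730R and 37.5 times in TLR4-K810R. The log2 difference was 3.29 in TLR4-WT (standard error 0.11, limma adjusted p = 4.33e-12), 3.79 in TLR4-K730R (0.11, adjusted p = 7.75e-13) and 5.15 in TLR4-K810R (0.11, adjusted p = 1.42e-14). In the fit with Cfb, 10.4% of the 9708 genes were called higher for TLR4-WT, 9.33% for TLR4-K730R and 9.09% for TLR4-K810R.

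In control macrophages Cfb of TLR4-K810R was at 21.2% of the TLR4-WT mean (log2 difference -2.18, standard error 0.11, limma adjusted p = 1.88e-08), where 1.59% of 9708 genes were called. In TLR4-K730R it was at 65.3% (difference -0.61, 0.11, adjusted p = 0.0151), and it was called there with limma's library weights (-0.59, adjusted p = 0.00434). After LPS the difference to TLR4-WT was -0.32 in TLR4-K810R (0.11, adjusted p = 0.112) and -0.11 in TLR4-K730R (adjusted p = 0.836). The LPS response of Cfb on the log2 scale was larger in TLR4-K810R than in TLR4-WT by 1.86 (standard error 0.15, limma adjusted p = 2.92e-05), where 0.144% of 9708 genes were called. That of TLR4-K730R was larger by 0.50 (0.15, adjusted p = 0.508). The Cfb calls held in every fit that left out a library. Replicate 1 of LPS-treated TLR4-K810R also listed a first exon of 20 bases at 34862552 to 34862571, between Cfb and C2, at 78.5 FPKM. It was not counted, and counting it changed no call. Reads of Cfb and C2 transcripts that were assembled together cannot be told apart by these events, and the level of C2 from events of its own span was 0.346 to 1.86 FPKM in all libraries.

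C3, the central component of all pathways, differed less. In TLR4-WT it was at 46.7, 46.1 and 46.2 FPKM in control and at 72.3, 64.0 and 78.1 FPKM after LPS. Libraries of TLR4-K730R read 46.8, 45.3 and 44.2 FPKM in control and 56.7, 59.7 and 70.9 FPKM after LPS. Libraries of TLR4-K810R read 41.0, 30.5 and 65.8 FPKM in control and 58.9, 61.6 and 61.2 FPKM after LPS. LPS libraries lay above control libraries in TLR4-WT and TLR4-K730R, and in TLR4-K810R control replicate 3 lay above all LPS libraries. The log2 differences were 0.61 (standard error 0.19, limma adjusted p = 0.0144), 0.44 (0.19, adjusted p = 0.0624) and 0.47 (0.19, adjusted p = 0.0591) for TLR4-WT, TLR4-K730R and TLR4-K810R, respectively. With median-of-ratios scaling C3 was called higher in all 3 lines, with 0.90 (adjusted p = 0.000641 from limma), 0.79 (adjusted p = 0.00189) and 0.69 (adjusted p = 0.00587). It was also called with library weights in TLR4-WT (limma adjusted p = 0.00402) and TLR4-K810R (adjusted p = 0.00736), and with only the compared groups in the fit in TLR4-WT (adjusted p = 0.00480). Without control replicate 3 the difference in TLR4-K810R was 0.76 (adjusted p = 0.000344 from limma), and without control replicate 2 it was 0.22 (adjusted p = 0.304).

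Markers of other peritoneal cells moved with C3 in some libraries. Of 8 fibroblast markers 7 had a value, and their summed level in TLR4-K810R control was 125, 110 and 263 FPKM in replicates 1, 2 and 3, the replicate highest in C3 being highest here too. In LPS-treated TLR4-WT the sum was 108, 43.0 and 142 FPKM, in the same order as C3. In LPS-treated TLR4-K730R it was 50.8, 52.0 and 49.4 FPKM, and there the library highest in C3 was lowest in the sum. The sum ranged from 30.1 to 48.6 FPKM in TLR4-WT control, from 59.0 to 65.6 FPKM in TLR4-K730R control and from 103 to 123 FPKM in LPS-treated TLR4-K810R. Lum and Thy1 reached 1 FPKM in 1 library each, and Pdgfra had no value. All 7 mesothelial markers had a value, with sums of 6.05 to 7.68 FPKM in TLR4-WT control and 22.1 to 52.1 FPKM in TLR4-K810R control, 12.3 to 19.1 FPKM in TLR4-K730R control and 3.59 to 14.0 FPKM over all LPS libraries, while Msln reached 1 FPKM in 2 libraries. Their part in the levels of C3 was not tested, and in bulk RNA a different number of cells of a type and a different amount of RNA per cell cannot be told apart.

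**Figure D2:**
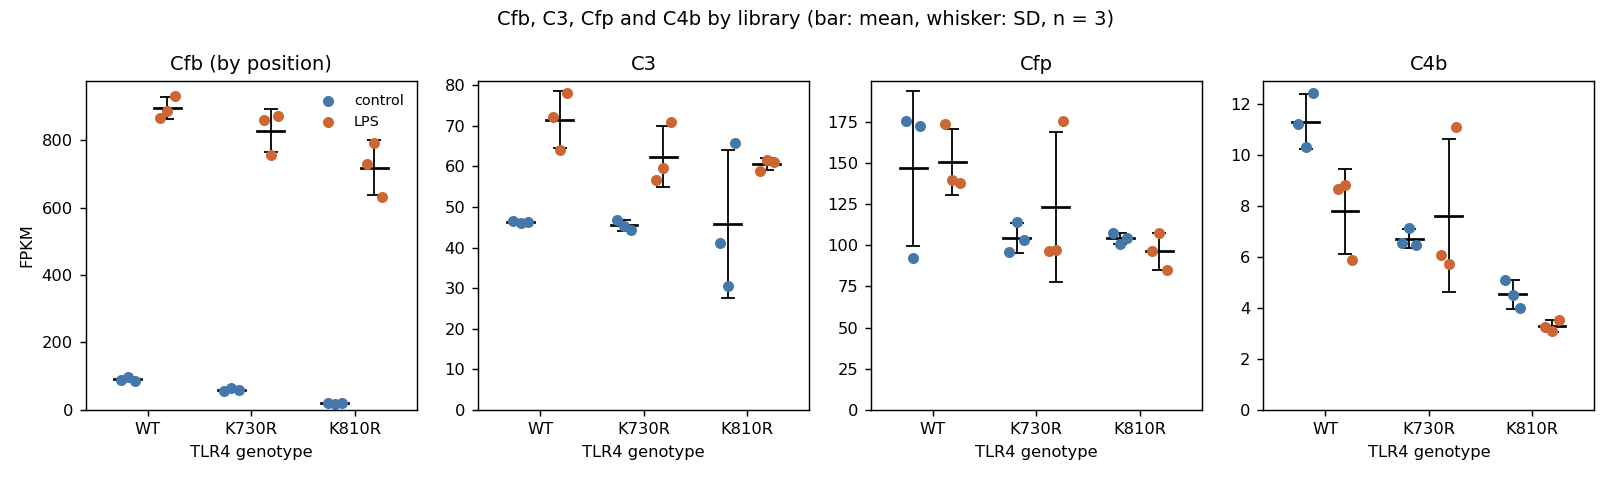
FPKM of Cfb (by position), C3, Cfp and C4b (vertical axes, each from 0) in each library by TLR4 genotype, in control (blue) and after LPS (orange), with the mean as a bar and the SD as a whisker. Cfb rises in every genotype, from 90.5 to 895 FPKM in TLR4-WT and from 19.2 to 718 FPKM in TLR4-K810R, and C4b in control falls in the order WT, K730R, K810R.

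C4b, the component cleaved by the classical and lectin pathways, had the lowest level of the 7 values in all groups. In TLR4-WT it was at 11.2, 10.3 and 12.5 FPKM in control and at 8.67, 8.85 and 5.88 FPKM after LPS. In TLR4-K730R it was at 6.54, 7.14 and 6.47 FPKM in control and at 6.08, 5.71 and 11.1 FPKM after LPS. In TLR4-K810R it was at 5.11, 4.52 and 3.99 FPKM in control and at 3.24, 3.11 and 3.55 FPKM after LPS. TLR4-K810R libraries lay below those of both other lines under either condition, and replicate 3 of LPS-treated TLR4-K730R stood apart from its companions. The libraries of TLR4-K810R and TLR4-WT were apart for 20.8% of all tested genes in control and 25.3% after LPS. C4b was the only one of the 6 genes called between lines, lower in TLR4-K810R than in TLR4-WT in control (log2 difference -1.16, standard error 0.19, limma adjusted p = 0.00312), where 1.58% of all genes were called. Leaving out a library kept this call in 1 of 6 fits, with adjusted p up to 0.0198, and fitting only these groups gave an adjusted p of 0.0133. In TLR4-K730R the control difference was -0.67 (adjusted p = 0.246), and 0.268% of all genes were called there and none of the 6. LPS differences of C4b were -0.50 in TLR4-WT (limma adjusted p = 0.0440), 0.11 in TLR4-K730R (adjusted p = 0.668) and -0.36 in TLR4-K810R (adjusted p = 0.151). Without LPS replicate 3 the difference in TLR4-K730R was -0.16 (adjusted p = 0.427 from limma). With median-of-ratios scaling C4b differed by -0.23 in TLR4-WT (limma adjusted p = 0.421) and by 0.42 in TLR4-K730R (adjusted p = 0.144). C4a, a near copy of C4b, was listed at 1.502 FPKM or less in every library, and how reads common to both were divided is not known.

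Properdin (Cfp) is a positive regulator of the alternative pathway that phagocytes store and release. In TLR4-WT it was at 176, 92.3 and 173 FPKM in control and at 174, 140 and 138 FPKM after LPS. Libraries of TLR4-K730R were at 96.1, 114 and 103 FPKM in control and at 96.6, 97.1 and 176 FPKM after LPS. Libraries of TLR4-K810R were at 107, 101 and 105 FPKM in control and at 96.3, 108 and 85.1 FPKM after LPS. Control and LPS libraries overlapped in all lines, and the LPS differences were 0.09 (standard error 0.24), 0.18 and -0.12 with adjusted p of 0.788, 0.556 and 0.724 from limma. Control replicate 2 of TLR4-WT, low in C1qc, was also low in Cfp, and replicate 3 of LPS-treated TLR4-K730R, high in the C1q genes and C4b, was also high in Cfp. Without the first of these the difference in TLR4-WT was -0.21 (limma adjusted p = 0.434), and without the second that in TLR4-K730R was -0.11 (adjusted p = 0.722). With median-of-ratios scaling the Cfp differences were 0.38 in TLR4-WT (limma adjusted p = 0.255), 0.53 in TLR4-K730R (adjusted p = 0.112) and 0.11 in TLR4-K810R, where the sign changed.

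The receptor C5ar1 (ENSMUSG00000049130, chromosome 7, 16246743 to 16259540) was listed in replicates 2 and 3 of LPS-treated TLR4-K730R at 112 and 101 FPKM, in replicate 1 of TLR4-K810R control at 0.652 FPKM and in replicate 2 of LPS-treated TLR4-K810R at 0.207 FPKM. The other 14 libraries had no row for it. Of 20 genes that every cell uses, Rpl13a and Rpl32 also had no value and Gapdh ranged from 0.369 to 144 FPKM, so a missing row does not show that a gene is silent. No fold change was computed.

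**Figure D3:**
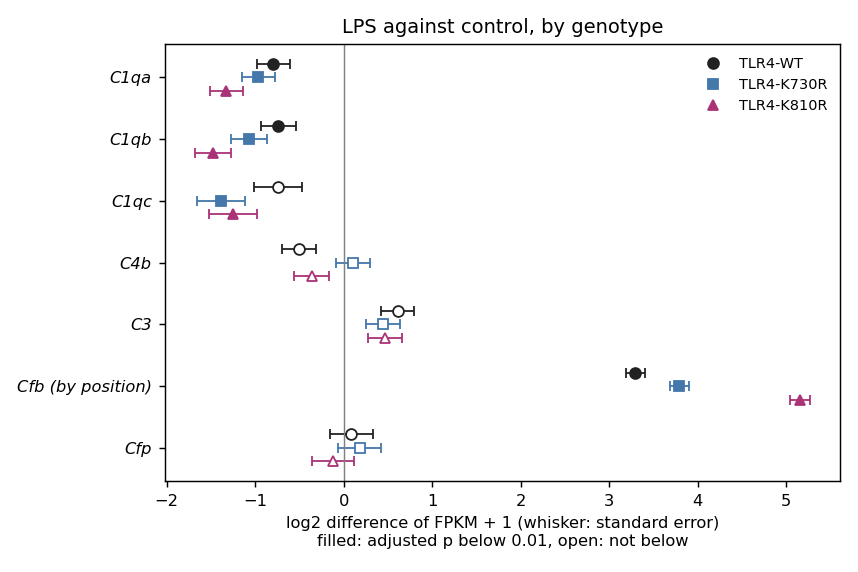
Log2 difference of FPKM + 1 between LPS and control (horizontal axis) for the 7 values (vertical axis) in TLR4-WT, TLR4-K730R and TLR4-K810R, with standard errors as whiskers and filled symbols for an adjusted p below 0.01. The C1q genes lie between -1.48 and -0.74, Cfb between 3.29 and 5.15, and C3, C4b and Cfp are open symbols.

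After LPS the 6 tested genes all lay lower in TLR4-K810R than in TLR4-WT, with differences from -1.02 for C4b to -0.23 for C3 and a median of -0.75, while the median of all tested genes was 0.11. For 6 of the 6 genes all 3 TLR4-K810R libraries lay below all 3 TLR4-WT libraries, which held for 7.89% of the 9707 genes. In either direction the groups were apart for 25.3% of these genes. The 6 genes were chosen with earlier results of these data known, and C1qa and C1qb moved together (r = 0.96 over 18 libraries). The 6 of 6 therefore cannot be read as an excess over the share of all genes. None of the 6 was called, and 0.134% of all genes were. The smallest adjusted p were 0.0193 for C4b (limma, standard error 0.19), 0.0205 for C1qa (difference -0.97, standard error 0.19) and 0.0567 for C1qb (difference -0.75, standard error 0.20). C1qc (-0.76) and Cfp (-0.64) had adjusted p of 0.127 and 0.144. With limma's library weights C1qa, C1qb and C4b were called, and C1qa and C4b also passed when LPS replicate 3 of TLR4-WT was left out (-1.19 and -1.18). In LPS-treated TLR4-K730R the 6 differences to TLR4-WT lay between -0.47 and -0.06, the groups overlapped for each, and none was called. These values rested in part on single libraries, since without LPS replicate 3 of TLR4-K730R they were -0.80 for C1qb (limma adjusted p = 0.0308), -0.64 for C1qa, -0.63 for Cfp and -0.33 for C4b, and without LPS replicate 3 of TLR4-WT that of C1qa was -0.64. With all libraries 0% of all genes were called by limma in this comparison and 746 had an unadjusted p below 0.05, C1qa (0.0414) and C1qb (0.0310) among them.

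The LPS responses themselves were compared between lines. None of the 6 genes was called, where 0.0412% of all genes were called for TLR4-K730R and 0.124% for TLR4-K810R. The fall of C1qb was larger in TLR4-K810R than in TLR4-WT by 0.74 on the log2 scale (difference of differences -0.74, standard error 0.28, limma adjusted p = 0.280). Those of C1qa (-0.53, adjusted p = 0.409) and C1qc (-0.50, adjusted p = 0.612) did not pass either, and that of C1qc was -0.07 without control replicate 2 of TLR4-WT. These comparisons have larger standard errors than those of 2 groups, and all contain the same TLR4-WT libraries.

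**Figure D4:**
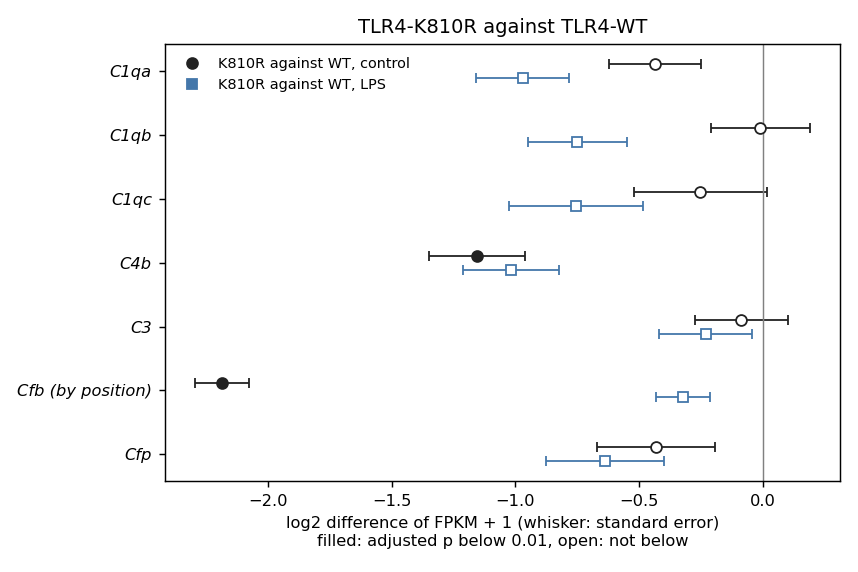
Log2 difference of FPKM + 1 between TLR4-K810R and TLR4-WT (horizontal axis) for the 7 values (vertical axis), in control and after LPS, with standard errors as whiskers and filled symbols for an adjusted p below 0.01. In control C4b (-1.16) and Cfb (-2.18) are filled, and after LPS all symbols lie below 0 and are open.

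Replicate 3 of the LPS-treated TLR4-WT and TLR4-K730R groups, which stood apart for several of these genes, also differed from its companions in some markers of macrophage subsets and of mast cells. Timd4, a phosphatidylserine receptor and marker of resident peritoneal macrophages, was at 6.17, 5.74 and 3.02 FPKM in LPS-treated TLR4-WT, where replicate 3 was also lowest in C1qa, C1qb and C4b. It was at 2.44, 2.35 and 7.04 FPKM in LPS-treated TLR4-K730R, where replicate 3 was highest in all of them, and at 1.20, 0.865 and 1.36 FPKM in LPS-treated TLR4-K810R. In control libraries it was at 1.05 to 1.49 FPKM (TLR4-WT), 0.762 to 1.77 FPKM (TLR4-K730R) and 0 to 0.562 FPKM (TLR4-K810R). Gata6, a factor on the list of resident markers, went the other way in control, at 1.13 to 1.47 FPKM in TLR4-WT and 4.23 to 10.9 FPKM in TLR4-K810R, the group with the highest mesothelial sums (22.1 to 52.1 FPKM). All 10 markers of that list had a value, Selp stayed below 1 FPKM in all libraries, and the summed level was 135 to 144 FPKM in TLR4-WT control, 105 to 111 FPKM for TLR4-K730R and 111 to 115 FPKM for TLR4-K810R, both control, most of it F10. After LPS it was 610 to 658 FPKM for TLR4-WT, 600 to 714 FPKM for TLR4-K730R and 662 to 712 FPKM for TLR4-K810R. The sum did not set replicate 3 apart, at 658, 610 and 616 FPKM in LPS-treated TLR4-WT and at 600, 714 and 714 FPKM in LPS-treated TLR4-K730R. Of 7 markers of elicited or monocyte-derived macrophages 6 had a value, and their sum was 759, 829 and 1219 FPKM in LPS-treated TLR4-WT and 1086, 1039 and 743 FPKM in LPS-treated TLR4-K730R, so that replicate 3 was highest in the line where it was lowest in C1qa and lowest in the line where it was highest. It was 838 to 1035 FPKM in LPS-treated TLR4-K810R, and in control 634 to 725 FPKM for TLR4-WT, 823 to 919.9 FPKM for TLR4-K730R and 580.2 to 943 FPKM for TLR4-K810R. Of 6 mast cell markers 5 had a value, and Kit and Mcpt4 stayed below 1 FPKM. Their sum was 4.61, 4.58 and 1.47 FPKM in LPS-treated TLR4-WT and 0.517, 0.504 and 2.51 FPKM in LPS-treated TLR4-K730R. After LPS TLR4-K810R libraries had 0.672 to 2.09 FPKM. In control it was 4.70 to 5.25 FPKM for TLR4-WT, 0.494 to 2.58 FPKM for TLR4-K730R and 0.797 to 2.64 FPKM for TLR4-K810R, so TLR4-WT lay above both mutant lines, as it did in C4b. These levels are low, and of the 3 mast cell markers tested none was called between TLR4-WT and a mutant line. The part of any of these cells in the differences of C1q and C4b was not tested.

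Across the 18 libraries, C1qa and C1qb correlated with r = 0.96 and each with C1qc with r = 0.87. With the group means removed the values were 0.89 for C1qa and C1qb and 0.31 and 0.37 for C1qc with each. C4b then correlated with C1qa and C1qb at 0.85 and 0.87, and C1qc with Cfp at 0.83. The points share libraries and groups, so these values are a description. The genes most like each of these genes other than Cfp over the 18 libraries were Aif1 (r = 0.98) and Atf3 (0.97) for C1qa, Ehd4 (0.97) and Gadd45g (0.97) for C1qb, and Tmub2 (0.93) and Plod1 (0.92) for C1qc. They were Fcna (0.97) and H2-Aa (0.91) for C4b, Gstt1 and Sptlc2 (0.88 each) for C3, and Oasl1 and Ly6c2 (0.99 each) for Cfb. With the group means removed the most similar gene was Ccl7 (0.97) for C1qa, Csrp1 (0.96) for C1qb, Npc2 (0.97) for C1qc, Chmp4b (0.96) for C4b, Cttn (0.96) for C3 and Pts (0.87) for Cfb.

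Of 46 other complement genes, 22 had a value and 14 were tested. After LPS 2 were called higher and 5 lower in TLR4-WT, 4 lower in TLR4-K730R and 6 lower in TLR4-K810R, against the shares of all genes given above, and their median difference was -0.46, -0.36 and -0.43. Lrp1, an endocytic receptor, was at 289, 256 and 294 FPKM in TLR4-WT control and at 95.1, 130.2 and 115 FPKM after LPS. The groups did not overlap, as for 55.0% of all tested genes. The log2 difference of Lrp1 was -1.31 (standard error 0.13), with -1.63 in TLR4-K730R and -1.19 in TLR4-K810R. Itgax, a subunit of complement receptor 4, was at 71.3, 78.6 and 73.1 FPKM in TLR4-WT control and at 31.1, 31.8 and 32.3 FPKM after LPS, a difference of -1.20 (standard error 0.10). Itgax, Lrp1 and Cd59a, which blocks the terminal pore, were called lower in all 3 lines. Colec12, a scavenger receptor of the collectin family, was called lower in both mutant lines (-1.05 and -1.15). Vsig4, a receptor for C3 fragments, was called lower in TLR4-WT (-1.21) and TLR4-K810R (-1.12), Cd55, which speeds convertase decay, in TLR4-K810R (-1.19) and C1qbp, a mitochondrial protein that binds C1q, in TLR4-WT (-1.10). Cd55 was at 1.37, 1.05 and 3.62 FPKM in TLR4-K810R control and at 0, 0.565 and 0.209 FPKM after LPS, highest in the control library in which the fibroblast sum (263 FPKM) and the mesothelial sum (52.1 FPKM) were highest. The mesothelial sum was 9.39 to 10.9 FPKM in LPS-treated TLR4-K810R, and the part of these markers in the call was not tested.

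The genes called higher after LPS in TLR4-WT were Clu (1.35, standard error 0.38, limma adjusted p = 0.00774) and Serping1 (1.63, standard error 0.43, adjusted p = 0.00532), which encode clusterin and the C1 inhibitor. In the LPS libraries Clu was at 7.47, 2.23 and 11.3 FPKM and Serping1 at 5.40, 0.908 and 6.99 FPKM, in the order of the fibroblast sums given above (108, 43.0 and 142 FPKM). Their part in these calls was not tested.

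Between lines, Fcna, a ficolin that starts the lectin pathway, had the pattern of C4b. It was at 47.0, 50.7 and 52.3 FPKM in TLR4-WT control, 28.0, 24.4 and 31.6 FPKM in TLR4-K730R control and 18.9, 15.9 and 17.998 FPKM in TLR4-K810R control. After LPS it was at 40.6, 42.7 and 30.1 FPKM in TLR4-WT, 29.6, 27.8 and 43.7 FPKM in TLR4-K730R and 11.3, 11.0 and 12.8 FPKM in TLR4-K810R. It was called lower in TLR4-K810R than in TLR4-WT in control (-1.46, standard error 0.17, limma adjusted p = 0.000104) and after LPS (-1.60, 0.17, adjusted p = 0.000602). Itgax was called lower in TLR4-K810R in control (-0.59, adjusted p = 0.00312 from limma), and no other of the 14 genes was called between lines. The levels of the terminal components were not readable, since none of 7 passed the filter.

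**Figure D5:**
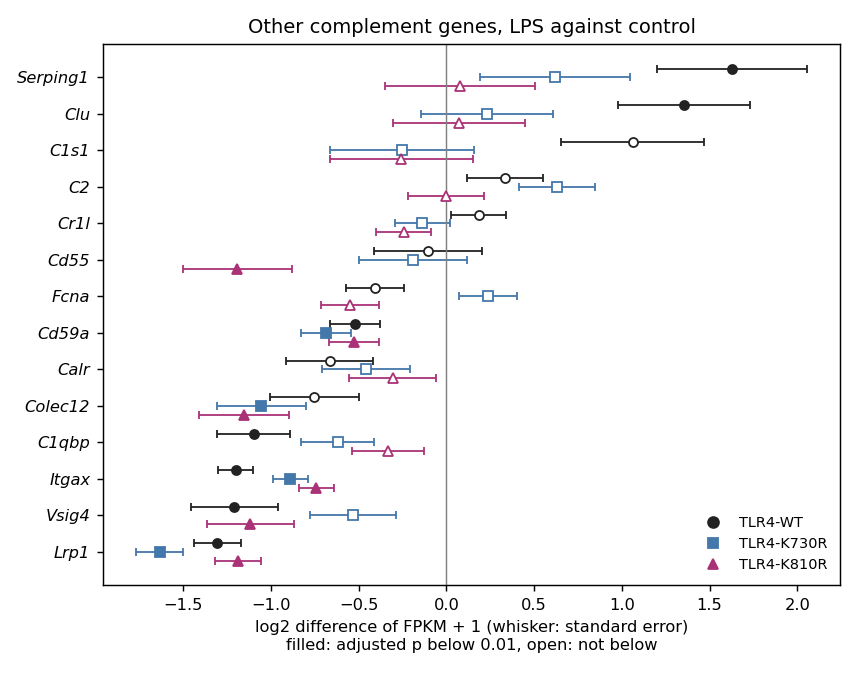
Log2 difference of FPKM + 1 between LPS and control (horizontal axis) for the 14 other complement genes tested (vertical axis) in TLR4-WT, TLR4-K730R and TLR4-K810R, with standard errors as whiskers and filled symbols for an adjusted p below 0.01. Lrp1, Itgax and Cd59a are filled in all 3 genotypes, with Lrp1 at -1.63 to -1.19.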

How the data were processed

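Macrophage RNA was sequenced in 18 libraries, 3 in each of 6 groups (3 TLR4 genotypes, control or LPS), and groups and replicate numbers follow the labels. Per library, the authors deposited the FPKM of 20 kinds of transcript event, with Ensembl gene numbers and without read counts (80071 to 90401 rows per library). The aligner and event program are not given in the sources used here. The submitters' processing notes name the build hg18, a human build, whereas the coordinates match GRCm38, whose GENCODE annotation was used. Since FPKM are relative to the library's total, a strong rise of some genes lowers the others.

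Events on the strand and span of the named gene were kept, and the larger of the summed first-exon (TSS) and last-exon (TTS) FPKM was taken (Python 3.11.15, pandas 2.3.3). Of all genes, the 9707 genes that reached 1 FPKM in 3 or more libraries entered limma 3.58.1 (R 4.3.3) on log2(FPKM + 1), with all 6 groups in one fit, an intensity trend, Benjamini-Hochberg adjustment over all genes and a threshold of 0.01. The script was tested on simulated data. Cfb by position was fitted as 1 more gene. Alternatives covered the pseudocount, filters, scaling, trend, library weights, replicate block, value per gene, threshold, samples in the fit and left-out libraries. The genes named are the 9 complement genes, 46 other complement genes, the 2 genes most like each member, cell markers and near copies. Another gene of the complement list, and the genes most like Cfp, are not reported here. The members and lists were chosen with earlier results of these data known. No exact test was used, and depth was unknown.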

Additional observations from a re-analysis of the deposited data

Results flagged for a closer look

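The LPS response of Cfb, read by position, differed between lines by a test of the difference itself. It was larger in TLR4-K810R than in TLR4-WT by 1.86 on the log2(FPKM + 1) scale (limma adjusted p = 2.92e-05). All 3 control libraries of TLR4-K810R (17.2 to 20.5 FPKM) lay below all 3 of TLR4-WT (86.4 to 97.8 FPKM). These groups were apart, in either direction, for 20.8% of all tested genes. The Cfb means after LPS were 718 and 895 FPKM. The difference was 1.79 to 1.95 when each library of the 4 groups was left out in turn.

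C5ar1, which entered no comparison, was listed at 112 FPKM in replicate 2 and at 101 FPKM in replicate 3 of LPS-treated TLR4-K730R. The highest listed control value was 0.652 FPKM, and 14 libraries had no row. The difference was not tested.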

How the results depend on the processing

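Of the 6 tested genes, 2 were called after LPS in TLR4-WT. The count was 1 with no filter on low values, 1 with median-of-ratios scaling, 4 with library weights, 5 at an adjusted p below 0.05, and 0 to 1 when a library was left out. With median-of-ratios scaling the 1 call was C3, which was higher, and the calls of C1qa and C1qb were lost. For TLR4-K810R against TLR4-WT after LPS, where 0 were called by limma and 5 of the 6 had an unadjusted p below 0.05, as did 2118 of all 9707 genes, the count was 3 with library weights, 2 at an adjusted p below 0.05 and 0 to 2 with a library left out. For TLR4-K810R against TLR4-WT in control it was 0 in place of 1 with both groups alone in the fit, and 0 to 1 with a library left out. The cause was not tested. In the other 6 comparisons every alternative stayed within 1.5 times the count. Within those counts, C3 entered as higher in both mutant lines after LPS with median-of-ratios scaling. The calls lost there were C1qa and C1qb in TLR4-K730R and C1qc in TLR4-K810R. Of 1263 single-gene values under alternatives, Cfb included, 1168 kept direction and side of the threshold, 26 moved by over 1 standard error and 24 changed sign without a call in either fit, 21 gained and 24 lost a call, and none reversed as a called value. A last-exon value was not available for C3 and Cfb, nor a first-exon value for Cfp. Libraries with the same replicate number showed no common deviation across genes, which cannot exclude a pairing that touches fewer genes. With group means removed, 45 same-numbered pairs correlated across genes with r between -0.32 and 0.10, and none exceeded 0.1. With the replicate number as a block, the count in TLR4-WT after LPS was 1, since C1qb had an adjusted p of 0.0109 from limma, and no other call among the 6 genes changed. FPKM without counts leave the depth behind low values such as C4b unknown.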
